A study of Mus musculus with 10 samples.

Results

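The proteasome genes of this ribosome profiling series were taken by symbol: Psma, Psmb, Psmc, Psmd, Psme, Psmf or Psmg followed by digits only. The rule found 48 genes among the 21934 symbols that both tables list. Ribosome profiling reads the pieces of mRNA left after nuclease digestion because a ribosome covered them (footprints). Polyadenylated input RNA from the same condition measures how much mRNA there was. Values are TPM, a length-corrected share of each library, so that read depth is unknown. The 10 mouse libraries hold 1 input and 1 footprint library for each of 5 conditions. Immortalized macrophages derived from bone marrow (iBMDM), grown as monoclonal lines, were labelled WT, sgWdr4-1 (guide 1) or sgWdr4-2 (guide 2). The guide lines had received lentivirus carrying a guide RNA against Wdr4 and puromycin selection, and the labels do not say what virus, if any, the WT line received. Macrophages sorted by F4/80 from liver tumours (TAM) came from mice labelled Wdr4 ff (floxed, called ff) or Wdr4 cKO (myeloid-specific knockout, called cKO). These tumours grew from implanted Hepa1-6 hepatoma cells. The labels used here give neither the driver of the deletion, the age of the mice nor how many were pooled.

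The proteasome breaks down proteins that carry ubiquitin chains. Its 20S core is a barrel of alpha rings (Psma genes) around beta rings (Psmb genes), whose inner face holds the cutting sites. The 19S cap binds and unfolds the substrate with a ring of ATPases (Psmc) and non-ATPase subunits of a base and a lid (Psmd). Assembly chaperones (Psmg, Psmd5, Psmd9, Psmd10), other activators (Psme) and the inhibitor-type factor Psmf1 act on these particles. In immune cells and under interferon, Psmb8, Psmb9 and Psmb10 replace the catalytic Psmb5, Psmb6 and Psmb7 to form the immunoproteasome, which serves antigen presentation. The series' title puts the question of Wdr4 and translation efficiency. Its protein works with Mettl1, which methylates tRNA.

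Some facts on the libraries touch every result. Wdr4 went against its labels in part: input stood at 44.6 TPM (WT), 31.3 TPM (guide 1), 44.5 TPM (guide 2), 39.8 TPM (ff) and 20.9 TPM (cKO). Wdr4 footprints, by contrast, were higher in each targeted library than in its control. Directions below are therefore between libraries labelled so. Of 12 macrophage markers, 9 stayed under 1 TPM in each input library, while for Adgre1 (the F4/80 gene) and Aif1 all 10 libraries list 0. Summed input of the 12 lay between 17.5 and 23.2 TPM, against 3511 to 5073 TPM for 8 fibroblast markers. Of these 8, Pdgfra, Dcn and Lum, 3 in all, also stayed under 1 TPM in each input library. Acta2 alone was at 2397 to 3785 TPM and made up most of the sum. Whether another cell type shaped any result here was not tested. The guide 1 footprint library stood apart, with mitochondrially encoded genes at 0.781% of TPM against 9.94% to 14.6% in the other 4 footprint libraries. Each guide is therefore given on its own, and guide 2 alone shows each result without that library.

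Proteasome genes took a steady share of input RNA and a variable share of footprints. The 48 genes together held 0.929% of input TPM in WT, 0.940% under guide 1, 0.941% under guide 2, 0.946% in ff and 0.890% in cKO. Their share of footprint TPM was 0.634% in WT, 1.01% under guide 1, 0.693% under guide 2, 0.608% in ff and 0.565% in cKO. The guide 1 footprints were thus the only library of the 5 in which the share of footprints exceeded that of input. Counted without mitochondrially encoded genes, the footprint shares were 0.743%, 1.02%, 0.772%, 0.675% and 0.655% in the same order. Guide 1 was the highest of the 5 on both scales.

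**Figure D1:**
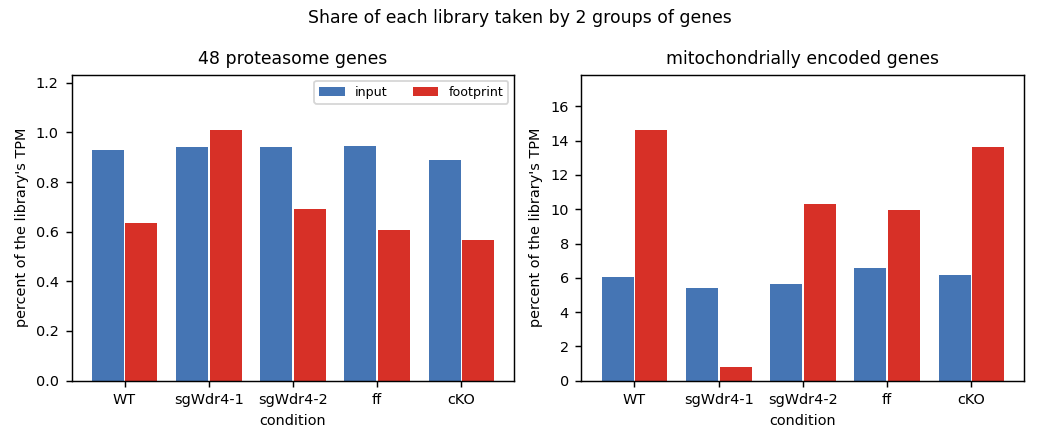
Share of each library's TPM (percent) taken by the 48 proteasome genes (left) and by mitochondrially encoded genes (right), for input (blue) and footprints (red) in 5 conditions with 1 library per bar. Proteasome input stays between 0.890% and 0.946%, while footprints reach 1.01% under guide 1, where mitochondrial footprints are at 0.781%.

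Among the 48 genes, input levels fell into tiers that largely followed the roles of the proteins. TPM is per gene length, so levels can be set beside each other, although the tables were normalised separately. The 31 subunits of the constitutive core and of the 19S base and lid spanned 109 to 527 TPM over the 5 input libraries. Psmd11, a lid subunit, was the lowest and Psmd2, the base scaffold that docks ubiquitin-like carriers, the highest. The 7 assembly chaperones, Psmf1 and the activators Psme1, Psme2 and Psme4 lay between 28.5 and 78.1 TPM. Psme3, the nuclear activator, was within the range of the subunits, at 141 to 160 TPM. So was Pomp, a maturation factor of the core that the symbol rule leaves out, at 231 to 284 TPM. Among the 31 subunits the widest input range over the 5 conditions was 1.28-fold, for Psma5.

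The immunoproteasome genes were close to absent in input. Psmb8 was listed at 0 in 3 of the 5 input libraries and reached 0.362 TPM in cKO. Psmb9 was at 0 in 3 input libraries and reached 0.348 TPM, also in cKO. Psmb10 was at 7.64 TPM in WT, 8.09 TPM under guide 1, 7.58 TPM under guide 2, 5.66 TPM in ff and 9.79 TPM in cKO. It was the only one of the 3 to pass the filter on low values, a mean of at least 5 TPM in input and in footprints of a table. Its constitutive counterpart Psmb7 had input of 325, 319, 341, 323 and 274 TPM in the same order, from 28.0-fold (cKO) to 57.2-fold (ff) above Psmb10. Psmb5 input lay between 252 and 283 TPM and Psmb6 input between 245 and 268 TPM. The testis-type Psma8 and the thymus-type Psmb11 were under 0.1 TPM in every input library. With Psmb8 and Psmb9 these are the 4 genes that did not pass the filter, which left 44 in each table.

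Psmb10 was also the gene of the 44 whose input was highest in cKO relative to ff, by 0.70 on the log2(TPM + 1) scale. The activator pair Psme1 and Psme2, which interferon induces together with the immunoproteasome, had unlike values. Input of Psme2 stood at 43.0 TPM in ff against 66.3 TPM in cKO, a log2 difference of 0.61. For Psme1 both were 37.9 TPM. Psme2 has a near copy listed as Psme2b, at 0 to 0.574 TPM in input, and how reads shared between copies were assigned is not given in the sources used here.

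Promoter windows of RefSeq (GRCm38.p6, 250 bases before to 50 after each start) were matched for 40 of the 48 genes, in 43 windows. They are shown because the input RNA of these genes kept together while that of immunoproteasome genes was near 0. The core of the antioxidant response element (TGACNNNGC, either strand), through which NFE2L1 and NFE2L2 act on proteasome genes, was in 6 of the 43 windows (13.95%), against 12.4% of all 32851 windows and 14.5% of 7919 windows of genes passing the filter in either table. Members held this core about as often as other genes. Capitals mark the core, on the sense strand for Psmb5, Psmb6 and Psmd9 and on the antisense strand for Psmc6, Psmd12 and Psme4.
Psmb5, chr14:54618024-54618052, minus strand: cgtgaagttgTGACGTCGCggcgttgcca
Psmb6, chr11:70525338-70525366, plus strand: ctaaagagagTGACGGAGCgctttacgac
Psmd9, chr5:123228149-123228177, plus strand: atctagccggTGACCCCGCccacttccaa
Psmc6, chr14:45329587-45329615, plus strand: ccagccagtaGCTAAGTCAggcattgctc
Psmd12, chr11:107479278-107479299, plus strand: tctGCTGTGTCAcatttgcccc
Psme4, chr11:30771758-30771786, plus strand: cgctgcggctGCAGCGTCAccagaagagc

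The CCAAT box (CCAAT, either strand) was in 14 windows (32.6%), against 37.4% of all windows. The core of the interferon-stimulated response element, taken as GAAA, any 2 bases and GAAA again on either strand, was in 5 of the 43 windows (11.6%), against 3.44% of all windows and 2.73% of windows of genes passing the filter. A match is a description of the letters and not of binding. Psme1, at 36.2 to 44.0 TPM in input, and Psmg4 are shown here with the core in capitals. In Psme1 the core starts 9 bases after the annotated start and lies antisense, and in Psmg4 it starts 15 bases after the start and lies sense.
Psme1, chr14:55578493-55578522, plus strand: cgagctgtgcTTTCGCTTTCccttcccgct
Psmg4, chr13:34162969-34162998, plus strand: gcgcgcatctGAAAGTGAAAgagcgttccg
Psmb3, Psmd4 and Psmd9 held the other 3 matches. The windows of Psmb8, Psmb9, Psmb10 and Psme2, which interferon also induces, held neither this core nor that of the antioxidant response element.

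Footprints spread the subunits of a particle further apart than input did. Over the 14 constitutive core subunits, the SD of log2(TPM + 1) was 0.29 in WT input and 0.64 in WT footprints. In the other 4 conditions it was 0.30 to 0.34 in input and 0.61 to 0.80 in footprints. Over the 17 subunits of the 19S base and lid it was 0.54 to 0.62 in input and 0.72 to 0.93 in footprints. Footprints thus spread the subunits more than input in each of the 5 conditions, for both particles. The same SDs were not taken over all genes, so this is not shown to be particular to the proteasome. Within the ring of 6 ATPases, Psmc1 to Psmc6, the SDs of input (0.35 to 0.45) and of footprints (0.33 to 0.48) overlapped. Subunits of the beta ring were not read at matching footprint levels. In WT, Psmb1 was at 501 TPM and Psmb6 at 123 TPM of footprints, both in the beta ring, with input of 277 and 265 TPM.

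**Figure D2:**
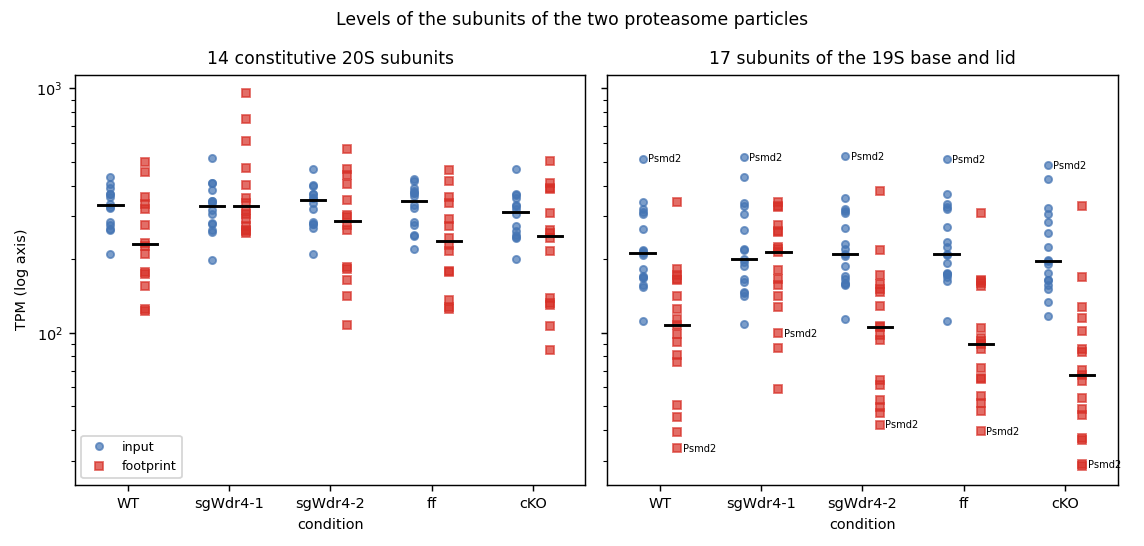
TPM on a log axis of the 14 constitutive 20S subunits (left) and the 17 subunits of the 19S base and lid (right) in input (blue circles) and footprints (red squares) of 5 conditions, 1 library each. Black bars are medians over subunits. Footprints are more spread than input in every condition, and Psmd2 is the highest 19S subunit in input and among the lowest in footprints.

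In WT and ff, the core carried more footprints than the cap relative to its input. Median translation efficiency, the log2(TPM + 1) of footprints minus that of input, was -0.52 over the alpha ring and -0.50 over the beta ring in WT, against -0.93 over the 17 subunits of base and lid. In ff the same medians were -0.54, -0.49 and -1.30. Assembly chaperones of the core were higher, at 0.01 in WT and 0.50 in ff. The median of all genes tested was -0.58 in WT and -0.59 in ff, so the core lay near it and the cap below it. The SD over the 44 members was 0.87 in WT and 0.96 in ff, less than the 1.20 and 1.28 over all genes tested. Under guide 1 the base and lid were at -0.03 and the median of all genes at -0.43, so there the cap was not below. The alpha ring, at -0.10 under guide 1, lay below the cap in that condition. Across genes, the values of the 44 members in WT and ff, which share no library, had a Pearson correlation of 0.94 and a Spearman correlation of 0.93, and the 6927 genes tested in both tables had 0.92 and 0.90. Genes are not independent replicates, and footprint libraries may share biases that follow the sequence.

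Psmd2 had the lowest translation efficiency of all 44 members in each of the 5 conditions. In the order WT, guide 1, guide 2, ff and cKO, its input was 516, 524, 527, 514 and 484 TPM. Its footprints were 33.8, 99.4, 42.0, 39.5 and 28.9 TPM in the same order. The values of -3.89, -2.39, -3.62, -3.67 and -4.02 put it below nearly all genes tested. Only 31 of the 7536 genes were lower in WT and 40 of the 7101 in ff, while 508 genes were lower under guide 1. The subunit with the highest input was thus among the mRNAs with the fewest footprints for their amount, and least so under guide 1.

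Psmd3 and Psme4 followed at the low end. Psmd3, a lid subunit, had input between 198 and 217 TPM and footprints of 45.4 TPM in WT, 141 TPM under guide 1, 46.9 TPM under guide 2, 47.7 TPM in ff and 36.9 TPM in cKO. Its translation efficiency was -2.18, -0.61, -2.11, -2.10 and -2.39, so guide 1 alone was high. Psme4, the large activator PA200, had footprints between 5.75 and 10.8 TPM and translation efficiency of -1.65, -2.23, -1.79, -1.86 and -1.90. For Psme4, guide 1 was the lowest library of the 5, opposite to Psmd2 and Psmd3. Psmd1, Psmd2, Psmd3, Psmd11 and Psme4 were the 5 members below the median of all genes in all 5 conditions, where 27% of the 6927 genes tested in both tables were.

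At the other end stood Psmd9, Psmb1 and Psmg4. Psmd9, a chaperone of 19S assembly, had input of 45.4, 40.1, 34.7, 38.2 and 36.5 TPM and footprints of 112, 125, 96.3, 97.2 and 68.8 TPM in the order WT, guide 1, guide 2, ff and cKO. Its translation efficiency of 1.28, 1.61, 1.44, 1.33 and 0.90 ranked first among the members in WT, guide 1 and ff. Psmb1, a non-catalytic beta subunit, had translation efficiency of 0.85, 1.43, 1.01, 0.71 and 1.01. In all, 17 of 44 members were above the median of all genes in every condition, where 29.5% of the 6927 genes were. Among the 17 were 4 of 7 constitutive beta subunits, 3 of 7 alpha subunits and 1 of 6 ATPases (Psmc6).

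Psmg4, a chaperone of core assembly, had the widest range between conditions among these 3. Its input was 36.1, 40.7, 31.8, 39.9 and 35.5 TPM and its footprints 51.6, 39.7, 99.8, 74.8 and 110 TPM. Footprints were highest in the guide 2 and cKO libraries and lowest under guide 1. Its partner Psmg3 went otherwise, with footprints of 44.5, 88.6, 57.9, 74.4 and 42.8 TPM and input of 53.2, 51.1, 45.7, 36.1 and 37.9 TPM.

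**Figure D3:**
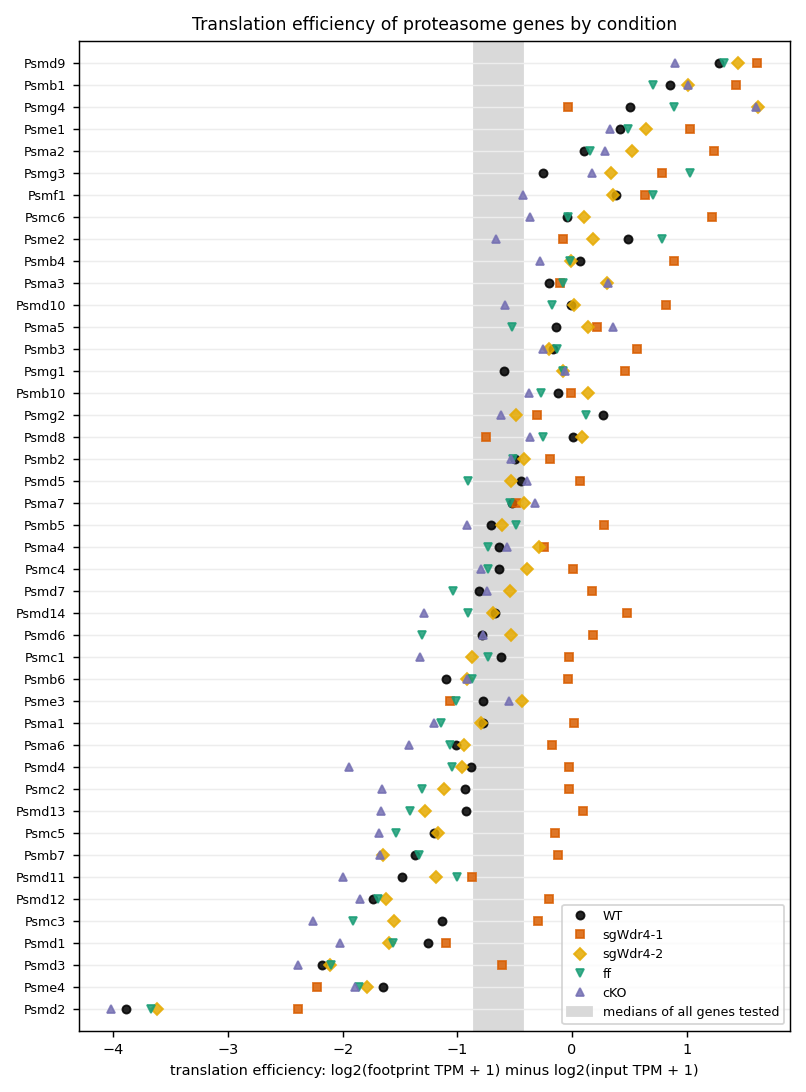
Translation efficiency of the 44 members that passed the filter, ordered by their mean over conditions, with 1 point per condition and the range of the medians of all genes tested in grey. Psmd2 is lowest in all 5 conditions (-4.02 to -2.39), and most guide 1 points (orange squares) lie to the right of the others.

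Between the guide lines and WT, differences in proteasome input were small. The median log2 difference of the 44 members was -0.01 under guide 1 and 0.01 under guide 2, where all genes were at 0.08 and 0.01. Above WT were 21 of 44 under guide 1 (all genes: 63.2%) and 24 of 44 under guide 2 (52.8%), with 20 below under guide 2 (47.2%). No member was at least 2-fold apart under guide 1 (all genes: 0.318% higher and 0.0796% lower), guide 2 (0.0265% and 0.0398%) or both (0.0133% and 0.0265%). After scaling every library to one median, 10 members were above WT and 34 below under guide 1, and 15 and 29 under guide 2. The members ranged from -0.26 (Psmc6) to 0.38 (Psmf1) under guide 1 and from -0.38 (Psmd9) to 0.24 (Psmd5) under guide 2.

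Footprints were higher under guide 1 for most members. The median was 0.77 under guide 1, where all genes were at 0.09, and 37 of 44 members (all genes: 53.6%) were above WT and 7 below (46.4%). At least 2-fold higher were 9 of 44 members (all genes: 16.1%), and none was 2-fold lower (10.3%). Under guide 2 the median was 0.08, with all genes at -0.03, and 30 of 44 were above WT (all genes: 47.5%) and 14 below (52.5%). Above WT under both guides were 26 of 44 (all genes: 29.2%). No member was at least 2-fold higher or lower under guide 2 (all genes: 3.03% and 4.63%) or under both guides (0.743% and 1.43%). The 2-fold differences were thus those of the guide 1 footprint library. With histone genes, ribosomal protein genes and mitochondrially encoded genes left out of the totals, the guide 1 median was 0.60.

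Translation efficiency was likewise higher for most members under guide 1. Their median was 0.76 with all genes at 0.01, and 38 of 44 were above WT (all genes: 50.5%) and 6 below (49.5%). At least 2-fold higher were 12 of 44 (all genes: 14.8%) and none lower (13.7%). Under guide 2 the median was 0.09 with all genes at -0.05, and 28 members were above WT (all genes: 46.5%) and 16 below (53.5%), or 35 and 9 after rescaling to the same median. Psmg4 alone was at least 2-fold higher (all genes: 3.53%) and none was lower (4.87%). No member passed 2-fold under both guides, where 0.902% of all genes were higher and 2.04% lower. Both guides share the WT libraries, so a high or low WT value moves both.

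By role, the guide 1 values were higher in the catalytic beta ring and the cap than in the alpha ring. Median translation efficiency differences were 0.82 for the beta ring, 0.87 for the ATPases and 1.00 for the lid, against 0.40 for the alpha ring. The highest were Psmd3 (1.56), Psmd12, another lid subunit (1.54), and Psmd2 (1.51). Psmb7, the subunit with trypsin-like cutting, was at 1.25, Psmb6 with caspase-like cutting at 1.06 and Psmb5 with chymotrypsin-like cutting at 0.98. Footprints of these 3 were 125, 123 and 173 TPM in WT and 293, 255 and 341 TPM under guide 1. The guide 2 values lay near WT, at 108, 141 and 182 TPM. The differences between roles were not tested.

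A few members went the other way under guide 1. Psmd8, a lid subunit, had the lowest difference in translation efficiency (-0.75), from footprints of 344 TPM in WT and 259 TPM under guide 1 and input of 343 and 435 TPM. Under guide 2 its footprints were 379 TPM and its input 358 TPM. Psme2, Psme3, Psme4, Psmg2 and Psmg4 were also below 0 under guide 1. Psmg2, the binding partner of Psmg1 in core assembly, was below 0 in all 3 comparisons, at -0.58 under guide 1, -0.76 under guide 2 (the lowest member there) and -0.74 in cKO. Its footprints were 50.1 TPM in WT, 36.5 TPM under guide 1, 31.8 TPM under guide 2, 41.6 TPM in ff and 27.4 TPM in cKO. Psmg1 was at 1.05, 0.51 and 0.02, so the partners differed in sign under both guides, while Psmg1 was near 0 in cKO.

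Alpha subunits had the same sign in footprints under guide 2. All 7 had more than in WT (all genes: 47.5%), by 0.06 (Psma6) to 0.46 (Psma3). Under guide 1 all but Psma3 (-0.01) did so (all genes: 53.6%). In translation efficiency under guide 2, 6 of 7 were above WT (all genes: 46.5%), with Psma1 at -0.02. Psma2 had footprints of 226 TPM in WT against 471 TPM (guide 1) and 302 TPM (guide 2), with input of 211, 199 and 210 TPM. These sizes are below 2-fold under guide 2. Both guides share the WT libraries, and the alpha ring was not tested against other roles.

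Limma, fitted over all 7536 genes, called no member for input, footprints or translation efficiency. The lowest adjusted p (Benjamini-Hochberg) among members was 0.9998, 0.99997 and 0.9999 for these. At an unadjusted p under 0.05 there were 0 members for each, against 0.730%, 0.863% and 2.19% of all genes, and limma called 0%, 0.0133% and 0.0663% of all genes at an adjusted p under 0.05. For Psmd2 the mean difference of both guides from WT was 0.92 (SE 0.78) in footprints and 0.89 (SE 1.38) in translation efficiency. For Psma2 it was 0.78 (SE 0.60) in translation efficiency. The fit has 1 residual degree of freedom. For footprints and translation efficiency its spread was pooled fully over genes, so that an SE there follows the average level and not a gene's own gap between guides. It takes the single WT line to vary as much as the guide lines do, so an uncalled member is not shown to be unchanged. The guide lines carry different guides and gave 1 library per kind each. The p-values thus measure only the spread between these libraries, in which guide, line and technical differences cannot be told apart.

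**Figure D4:**
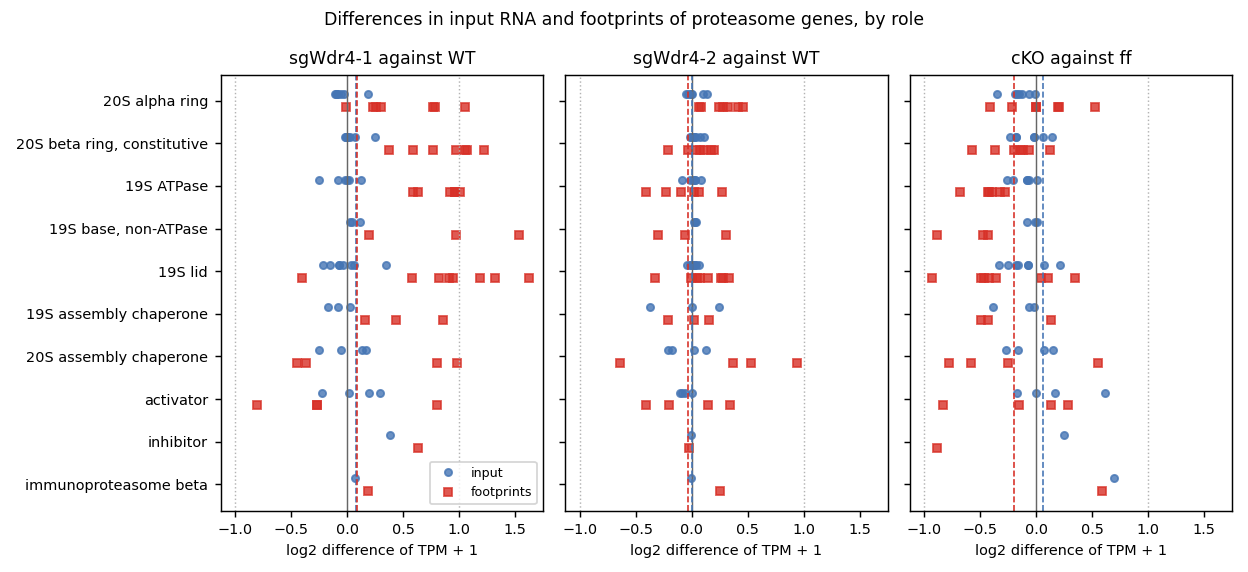
Log2 differences of TPM + 1 for each of the 44 members by role, in input (blue circles) and footprints (red squares), for each guide against WT and for cKO against ff, 1 library per condition and kind. Dashed lines are the medians of all genes tested and dotted lines mark 2-fold. Footprints under guide 1 lie to the right of input in most roles, and those of the 6 ATPases in cKO lie between -0.68 and -0.28.

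Between cKO and ff there is 1 library per genotype and kind, so differences have no replicate check. In bulk samples fewer cells of a type and less RNA per cell cannot be told apart. Input of the 44 members had a median of -0.08, with all genes at 0.06, and no member was 2-fold apart (all genes: 1.42% higher and 0.169% lower). Above ff were 13 of 44 (all genes: 58.8%) and below it 31 of 44 (41.2%), among them all 7 alpha subunits, by 0.36 (Psma5) at most. The lowest member in input was the chaperone Psmd5 at -0.39, from 74.8 TPM in ff and 57.1 TPM in cKO. Psma5 had input of 392 TPM in ff and 306 TPM in cKO.

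Footprints of the members were at a median of -0.30 in cKO with all genes at -0.20, and 12 of 44 were above ff (all genes: 36.1%) and 32 below (63.9%), or 19 and 25 after rescaling to the same median. None was at least 2-fold apart (all genes: 2.73% higher and 8.15% lower). All genes together were shifted, so the members' median was 0.10 below that of all genes. The 6 ATPases were all lower, from -0.68 (Psmc1) to -0.28 (Psmc4), as were the 3 base subunits, with Psmd4, a ubiquitin receptor, at -0.89. Psmd4 footprints were 155 TPM in ff and 83.5 TPM in cKO at input of 323 and 324 TPM. Psmd11 was the lowest of all members at -0.93, with footprints of 55.4 and 28.5 TPM.

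In the alpha ring 4 of 7 had fewer footprints in cKO, down to -0.41 (Psma6), and 3 had more. The difference between roles was not tested. Psma5 had 273 TPM of footprints in ff and 391 TPM in cKO, a difference of 0.52. The highest member in footprints was Psmb10 at 0.59, from 4.52 TPM in ff and 7.31 TPM in cKO. With its lower input, Psma5 had the highest difference in translation efficiency among members, at 0.88. It was above 94.3% of the genes tested. In the lid, Psmd6 also had more footprints, at 90.1 TPM in ff and 115 TPM in cKO.

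Translation efficiency in cKO had a median of -0.16 over members and -0.25 over all genes, so members lay 0.10 above the median of all genes. Above ff were 12 of 44 (all genes: 35.1%) and below it 32 (64.9%). After rescaling to the same median these were 26 and 18, and the median of the members was 0.14, so its sign depends on the scaling. As deposited, the constitutive core was 0.22 above the median of all genes and the 19S base and lid 0.08 below it. At least 2-fold lower were Psme2 and Psmf1, 2 of 44 or 4.55% (all genes: 16.0%), and none was 2-fold higher (all genes: 4.03%). Psme2 was at -1.45, from footprints of 74.8 TPM in ff and 41.6 TPM in cKO with input as given above. Under the guides it was at -0.57 and -0.30. Psmf1 was at -1.13, with footprints of 48.9 and 26.0 TPM and input of 29.5 and 35.3 TPM, and at 0.25 and -0.02 under the guides. Psmd11, at -0.998, was just short of 2-fold.

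Partners of the proteasome were taken from a list of 23 genes, of which 21 passed the filter for iBMDM and 22 for TAM. In translation efficiency no partner was at least 2-fold apart under both guides, and in cKO Ubqln4 was higher and Midn and Nfe2l1 were lower. Nfe2l1, the transcription factor that raises proteasome genes when proteolysis is impaired, had footprints of 67.6 TPM in WT, 39.9 TPM under guide 1, 44.1 TPM under guide 2, 59.6 TPM in ff and 40.3 TPM in cKO. Its input was 97.6, 118, 93.8, 96.3 and 138 TPM. Its footprints were lower in each targeted library than in its control, and its translation efficiency differed by -1.02, -0.55 and -1.07. Ubqln4, a shuttle for ubiquitylated proteins, was at 1.11 in cKO and at -0.59 and 0.22 under the guides. Midn, which brings proteins to the proteasome without ubiquitin, was at -1.42 in cKO and at 1.20 and -0.31 under the guides. Nfe2l2, the related factor, was at 0.66, -0.06 and -0.56. Pomp, the maturation factor of the core, was at 0.90, 0.61 and 0.11.

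Of 11 genes for ubiquitin and for the unfolding ATPase p97, none was at least 2-fold apart under both guides in the same direction. Vcp, which encodes p97, was at 2.51 in translation efficiency under guide 1, at -0.0026 under guide 2 and at -0.92 in cKO, and was chosen after its values were seen. In cKO the polyubiquitin gene Ubb was at least 2-fold lower, at -1.22. Ubb had input of 1237, 1531, 1261, 1202 and 1375 TPM and footprints of 13.98, 24.5, 5.66, 10.9 and 4.87 TPM. Genes that encode ubiquitin share its sequence, so the level of Ubb is uncertain.

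Peptide processing genes, next to the near absence of the immunoproteasome, were partly present. Tap1 and Tap2, the peptide transporter, were at most 3.25 TPM in input, highest in cKO for both, and did not pass the filter. Erap1, which trims peptides, had footprints of 23.7 TPM in WT, 11.2 TPM under guide 1, 9.59 TPM under guide 2, 37.3 TPM in ff and 15.8 TPM in cKO. It was at least 2-fold lower in translation efficiency in all 3 comparisons (-1.48, -1.09 and -1.57), at input of 8.24 to 17.8 TPM. Tapbp, of the loading complex, was at -1.42, -0.72 and -1.17. Irf1, a transcription factor of the interferon response, was at 1.42, 0.45 and -0.73, and B2m, the light chain of MHC class I, at -0.24, -0.27 and -0.71. Input of the 4 peptide processing genes tested was higher in cKO than in ff, by 0.25 (Irf1) to 0.81 (Tapbp).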

How the data were processed

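Values are TPM as the authors deposited them, in a table of 6 iBMDM and a table of 4 TAM libraries. Per the submitters' processing notes, the tools were Bowtie2 and fastp (0.18.0). The sources used here do not state build, annotation, quantifier or how multiply mapped reads were counted. Where a symbol had several rows, that with the highest mean was kept. Values were taken as log2(TPM + 1), which understates changes of low genes, for genes with mean input and mean footprint TPM of at least 5 in a table (7536 iBMDM and 7101 TAM genes). Limma 3.58.1 in R 4.3.3 (trended empirical Bayes, two-sided) compared both guide lines with WT. The step was tested on simulated data. Values and plots came from pandas 2.3.3, matplotlib 3.10.9 and numpy 2.4.6 under Python 3.11.15. The size rule was 2-fold, 1 on the log2 scale.

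The members, lists and tests were chosen with earlier results of these data known. The text names members 2-fold apart under both guides or in cKO, the highest and lowest per comparison, the 3 highest and 3 lowest in mean translation efficiency, the immunoproteasome subunits with their counterparts, Psma8, Psmb11 and, from the other lists, genes 2-fold apart. Other genes are examples chosen after their values were seen. All 48 symbols matched the gene tables. Protein sequences were not used here. Some genes of the other lists are not reported here.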

Additional observations from a re-analysis of the deposited data

Results flagged for a closer look

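The members' median differences went one way under both guides and the other way in cKO, for footprints (0.77 under guide 1, 0.077 under guide 2 and -0.30 in cKO) and for translation efficiency (0.76, 0.086 and -0.16). Relative to the median of all genes, the footprint values were 0.68, 0.11 and -0.10 in the same order. For translation efficiency they were 0.75, 0.13 and 0.096, so the opposite sign in cKO was not there on that scale. With a minimum mean of 20 TPM this last value was -0.065. The difference between the cell types was not tested. The guide 2 values are small, and the cKO value for translation efficiency changes sign with scaling.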

How the results depend on the processing

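Of the alternatives, 200 values stayed within 0.1 on the log2 scale or within 1.5-fold of a count, 11 moved further and 2 changed sign. Many of the 200 had little room to move, so their number is no measure of stability. They include SDs over subunits within a library, which rescaling barely alters, and limma counts of 0 at 1 residual degree of freedom. Among the 200, the guide 2 input median, near 0 as deposited, changed sign under both rescalings, to -0.02 and -0.00082. With guide 1 left out, members at least 2-fold apart under guide 2 numbered 0 for footprints (all genes: 3.03% higher and 4.63% lower). For translation efficiency there was 1 (3.53% and 4.87%). With guide 2 left out, guide 1 gave 9 for footprints (16.1% and 10.3%) and 12 for translation efficiency (14.8% and 13.7%). Each time only 1 line had to meet the rule, against both guides otherwise. Rescaling to the same median moved the members' medians to 0.63 for guide 1 footprints, -0.12 for guide 1 input and -0.087 for cKO footprints, and turned cKO translation efficiency to 0.14. Leaving mitochondrially encoded, ribosomal protein and histone genes out of the totals gave 0.60 and 0.65 for guide 1 footprints and translation efficiency, -0.19 for cKO footprints and 0.0026 for cKO translation efficiency. With no filter, Psmb8 was the only member 2-fold apart in cKO footprints, from 1.24 TPM in ff and 0 in cKO. Its input, 0.134 TPM in WT and 0 under both guides, was called by limma with no filter. Limma met genes without variance there, so that call is not read as a difference. For translation efficiency, limma called no member with input and footprints paired per condition, and none without pairing, in an interaction term over the 6 libraries. The few calls for other genes were not made without pairing. With no member called either way, the check says little about members. Depth is unknown, so low values such as those of Psmb8 and Psmb9 carry no counting interval.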

Other observations

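Sem1, the smallest subunit of the 19S lid, was chosen after its values were seen. Its input lay between 113 and 130 TPM, within the range of the other lid subunits, and its footprints between 1568 and 3021 TPM, above every one of the 48 genes in each of the 5 footprint libraries. Adrm1, the ubiquitin receptor of the base, had input between 130 and 142 TPM and footprints between 64.7 and 125 TPM. For a very short coding sequence, TPM depends strongly on the length the authors used, which is not given in the sources used here.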
